A study of Mus musculus with 8 samples.

Results

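The enzymes that write and remove cytosine methylation were followed across the 4 groups of a Set7 knock-down study in mouse cells. They are 9 of the 23483 genes in the deposited count table: Dnmt1, Uhrf1, Dnmt3a, Dnmt3b, Dnmt3l, Tet1, Tet2, Tet3 and Tdg. The genes were chosen by name, and for each the RefSeq transcript with the highest total count was used, giving 9 transcripts out of 23 counted for these genes. Poly(A) RNA was sequenced from 8 libraries, 2 per group, all from C57BL/6 cells at 5.5 mM glucose. Set7, the product of Setd7, methylates lysines of histone H3 and of several other proteins. The knock-down group consisted of Sca1 cells transduced with a lentiviral shRNA against Set7, a single targeting sequence. The NTC group consisted of Sca1 cells transduced with a non-target shRNA in the same way, and both groups were selected with puromycin at 1 µg/ml. The untreated Sca1 cells carried no construct. All 3 groups of Sca1 cells came from embryonic stem cells held for 4 days on gelatin without the cytokine LIF, sorted on magnetic beads for the surface protein Sca1 to a purity above 80%, and then grown without LIF. The mESC group consisted of undifferentiated mouse embryonic stem cells kept with LIF, for which the labels give no construct. The labels do not say that the 2 libraries of a group came from separate cultures. The p-values measure the spread between libraries of a group, pooled over the 4 groups, and that spread may be technical.

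In mammals, DNMT3A and DNMT3B set new methyl groups on cytosines, and DNMT3L, which has no catalytic activity of its own, binds and stimulates them. DNMT1 copies the pattern at replication, brought to newly made DNA by UHRF1. The TET dioxygenases oxidise methylcytosine, and TDG, a DNA glycosylase, removes the late oxidation products so that repair restores an unmethylated cytosine. Mouse embryonic stem cells are known to express Tet1 and Tet2 with little Tet3, and to use a short form of Dnmt3a that starts at an internal promoter.

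The promoters of the genes that the results turn on are shown with the starts that RefSeq lists for them, as windows of 300 bases from 250 bases before to 50 bases after the start (build GRCm38.p6, 5′ to 3′ on the gene's strand). Capitals mark an SP-type GC box (GGGCGG on either strand) or an E2F-type motif (TTCGCGC or TTGGCGC on either strand). In these windows no motif overlapped another. The 3 TET genes and Dnmt3a are shown because their levels differed most between mESC and Sca1 cells. For Dnmt3a the printed window is that of the short transcript. The level used is that of the long transcript, and the 2 share nearly all their reads. The window of the counted long transcript, not printed, held 6 SP-type motifs. The Dnmt3l window belongs to the transcript counted here, shown because Dnmt3l was called in knock-down cells, and Dnmt1 and Uhrf1 are shown for their E2F-type motifs. The 2 Dnmt3l transcripts of the count table differed by at most 5 reads in a library. They have different starts, which the counts do not tell apart. No counted Tet1 transcript starts within 50 bases of the Tet1 start that RefSeq lists.
Tet1, chr10:62887275-62887574, minus strand: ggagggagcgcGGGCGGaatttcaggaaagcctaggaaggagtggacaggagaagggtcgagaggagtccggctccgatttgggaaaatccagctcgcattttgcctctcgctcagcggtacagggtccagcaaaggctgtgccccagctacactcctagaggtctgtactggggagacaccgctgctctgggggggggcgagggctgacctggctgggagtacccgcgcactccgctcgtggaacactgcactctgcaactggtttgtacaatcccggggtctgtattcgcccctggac
Tet2, chr3:133544341-133544640, minus strand: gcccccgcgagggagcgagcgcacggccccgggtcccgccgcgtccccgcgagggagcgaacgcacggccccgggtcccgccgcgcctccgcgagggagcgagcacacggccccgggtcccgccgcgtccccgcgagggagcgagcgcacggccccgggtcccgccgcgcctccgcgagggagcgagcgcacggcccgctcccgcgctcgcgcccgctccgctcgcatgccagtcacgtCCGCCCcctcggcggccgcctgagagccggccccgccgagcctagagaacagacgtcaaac
Tet3, chr6:83441629-83441928, minus strand: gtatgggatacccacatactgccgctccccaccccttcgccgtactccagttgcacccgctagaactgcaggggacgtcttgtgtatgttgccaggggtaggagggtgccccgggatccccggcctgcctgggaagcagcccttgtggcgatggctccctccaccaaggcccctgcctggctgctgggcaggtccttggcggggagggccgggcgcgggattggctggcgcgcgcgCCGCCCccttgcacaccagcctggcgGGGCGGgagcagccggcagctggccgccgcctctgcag
Dnmt3a, start of NM_153743, chr12:3891494-3891793, plus strand: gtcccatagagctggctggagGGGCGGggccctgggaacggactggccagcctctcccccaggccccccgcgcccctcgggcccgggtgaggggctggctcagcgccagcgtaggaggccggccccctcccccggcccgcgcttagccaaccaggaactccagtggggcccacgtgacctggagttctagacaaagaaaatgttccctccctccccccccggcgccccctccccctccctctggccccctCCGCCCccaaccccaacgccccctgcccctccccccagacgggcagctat
Dnmt3l, start of NM_001081695, chr10:78042037-78042336, plus strand: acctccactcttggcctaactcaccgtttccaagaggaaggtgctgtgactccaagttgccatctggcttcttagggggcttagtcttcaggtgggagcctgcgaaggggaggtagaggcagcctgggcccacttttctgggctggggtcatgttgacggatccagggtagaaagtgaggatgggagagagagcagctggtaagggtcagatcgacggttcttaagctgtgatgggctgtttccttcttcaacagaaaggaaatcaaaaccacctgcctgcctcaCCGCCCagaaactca
Dnmt1, start of NM_001199433, chr9:20952574-20952873, minus strand: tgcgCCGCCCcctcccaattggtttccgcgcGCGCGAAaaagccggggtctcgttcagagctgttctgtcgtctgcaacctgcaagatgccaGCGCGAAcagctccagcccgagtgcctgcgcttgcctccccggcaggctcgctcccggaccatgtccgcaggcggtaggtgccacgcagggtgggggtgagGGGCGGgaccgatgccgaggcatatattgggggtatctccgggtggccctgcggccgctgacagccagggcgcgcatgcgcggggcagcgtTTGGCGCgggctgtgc
Uhrf1, start of NM_001111078, chr17:56304063-56304362, plus strand: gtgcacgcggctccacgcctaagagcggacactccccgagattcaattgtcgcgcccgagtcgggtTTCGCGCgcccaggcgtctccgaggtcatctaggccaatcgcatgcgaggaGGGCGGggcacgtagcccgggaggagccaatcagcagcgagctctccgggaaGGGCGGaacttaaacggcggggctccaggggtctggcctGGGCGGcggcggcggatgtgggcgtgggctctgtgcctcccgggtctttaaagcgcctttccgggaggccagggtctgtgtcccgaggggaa
CpG density differed between these windows. The Tet2 window held 57 CpG sites, the printed windows of Dnmt1 and Uhrf1 33 each, Tet3 22, the short Dnmt3a start 18, Tet1 17 and Dnmt3l 6. The window of the counted long Dnmt3a transcript held 46. The printed Dnmt1 and Uhrf1 windows are not those of the counted transcripts. The window of the counted Dnmt1 transcript held 2 CpG sites and neither motif. The other Dnmt1 transcripts differed from the counted one by at most 25 reads in a library. The counts therefore do not tell which Dnmt1 start was used. No Uhrf1 start that RefSeq lists lies within 50 bases of that of the counted transcript. Another Uhrf1 transcript held the same counts in every library. Its window held 12 CpG sites, 1 SP-type motif and no E2F-type motif. Across the 32851 promoter windows that RefSeq gives for 27025 mouse genes the median was 7 CpG sites, and 26.5% held at least 20. In all, 16 windows belonged to the 9 genes. The SP-type motif was in 12 of them, against 35.7% of all windows, and the E2F-type motif was in 2 of them, those of Dnmt1 and Uhrf1 printed here, against 3.89% of all windows. Some of the 16 windows share a gene, and the windows were not matched for CpG density, so these shares do not show an enrichment. A motif match describes the letters in the window and was not tested as a binding site.

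Counts summed over genes lay between 2507938 and 5080266 per library, and 13966 genes had enough reads to be tested, the 9 enzyme genes among them. Levels are given as CPM (counts scaled to library size), scaled by TMM to the make-up of each library. Each library carries a 2-digit code in its description, which is 12 and 34 for knock-down and NTC replicates 1 and 2, and 34 and 56 for untreated Sca1 and mESC replicates 1 and 2. Both libraries of code 56 stood apart, with 12% of the counts of untreated Sca1 replicate 2 and 11.5% of those of mESC replicate 2 on a ribosomal RNA transcript, against 0.40% to 1.62% in the other 6. The replicates of the knock-down and NTC groups lay close together (chi-square per degree of freedom 2.08 for knock-down and 1.54 for NTC), while those of the groups with 1 library of code 56 lay further apart (40.3 for untreated Sca1 and 54.4 for mESC). The chi-square was taken on unscaled counts with the ribosomal RNA transcript included, so these values do not show how far apart the other genes lay. Comparisons within a code are therefore given beside the pooled values. Setd7 was at 14.0 and 10.7 CPM in knock-down libraries, 60.6 and 66.5 CPM in NTC libraries, 76.2 and 66.1 CPM in untreated Sca1 libraries, and 11.2 and 16.5 CPM in mESC libraries. The targeted transcript was thus lower in both knock-down libraries than in either NTC library (log2 fold change -2.39 ± 0.20, ± standard error throughout, n = 2 libraries a group, edgeR quasi-likelihood test, Benjamini-Hochberg adjusted p = 1.71e-07). Ly6a, which encodes Sca1, was at 9.78 and 12.5 CPM in knock-down libraries, 5.42 and 6.45 CPM in NTC libraries, 12.9 and 4.41 CPM in untreated Sca1 libraries, and 9.82 and 5.71 CPM in mESC libraries. The transcript of the sorting marker was therefore low in all 4 groups and did not set the sorted cells apart from mESC. The 8 pluripotency markers examined (Pou5f1, Nanog, Sox2, Zfp42, Esrrb, Klf4, Tbx3 and Tfcp2l1) summed to 2468 and 2408 CPM in knock-down libraries, 1956 and 1899 CPM in NTC libraries, 2259 and 1859.6 CPM in untreated Sca1 libraries, and 3690.1 and 3190.0 CPM in mESC libraries, so they were present in all groups. In untreated Sca1 cells 6 of 8 were lower relative to mESC, where 16.8% of all tested genes were lower.

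Between untreated Sca1 cells and mESC the TET genes moved in opposite directions. Tet1 and Tet2 were lower in untreated Sca1 cells, by 2.83-fold and 3.42-fold, and Tet3 was 3.39-fold higher. Dnmt3a was 2.14-fold higher and Dnmt3b 1.48-fold higher in untreated Sca1 cells, while their cofactor Dnmt3l was 1.43-fold lower. Dnmt1, Uhrf1 and Tdg did not pass the test. Thus 6 of the 9 genes were called, 3 higher and 3 lower, where 35.5% of all tested genes were called (18.7% higher and 16.8% lower). In knock-down against NTC cells 2 of the 9 were called, with 14.3% of all genes (4.25% higher and 10.1% lower): Tet3 was 2.61-fold lower and Dnmt3l was 1.41-fold higher in knock-down cells. With 9 genes, that share cannot be set apart from the background. In NTC against untreated Sca1 cells 0 of the 9 were called, with 4.98% of all genes (3.88% higher and 1.1% lower), and DESeq2 also called 0. An unadjusted edgeR p under 0.05 was reached there by 4 of the 9, beside 2852 of the 13966 tested genes. The median log2 fold change over the 9 genes was -0.27 in untreated Sca1 cells against mESC, 0.14 in knock-down against NTC cells and 0.26 in NTC against untreated Sca1 cells, beside -0.01, 0.00 and 0.01 over all tested genes.

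**Figure D1:**
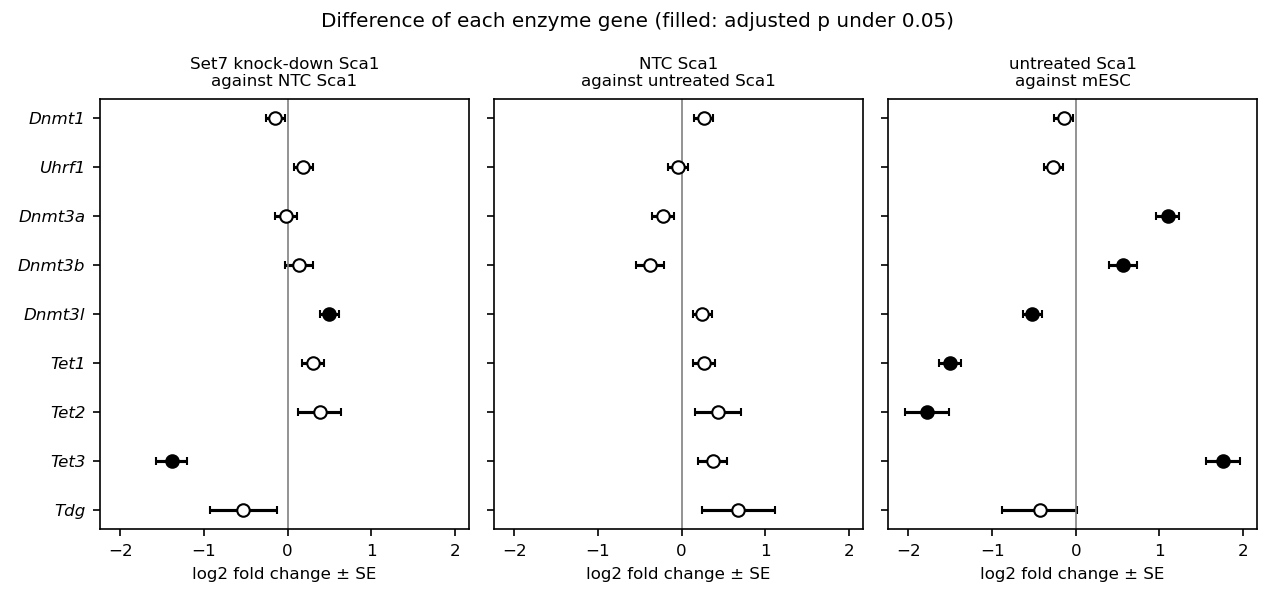
Log2 fold change (x axis) of each of the 9 enzyme genes (rows) in knock-down against NTC, NTC against untreated Sca1, and untreated Sca1 against mESC. Points are edgeR estimates with their standard error, filled where the adjusted p was under 0.05, and Tet3 lies at -1.38 in the first panel and at 1.76 in the last.

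**Figure D2:**
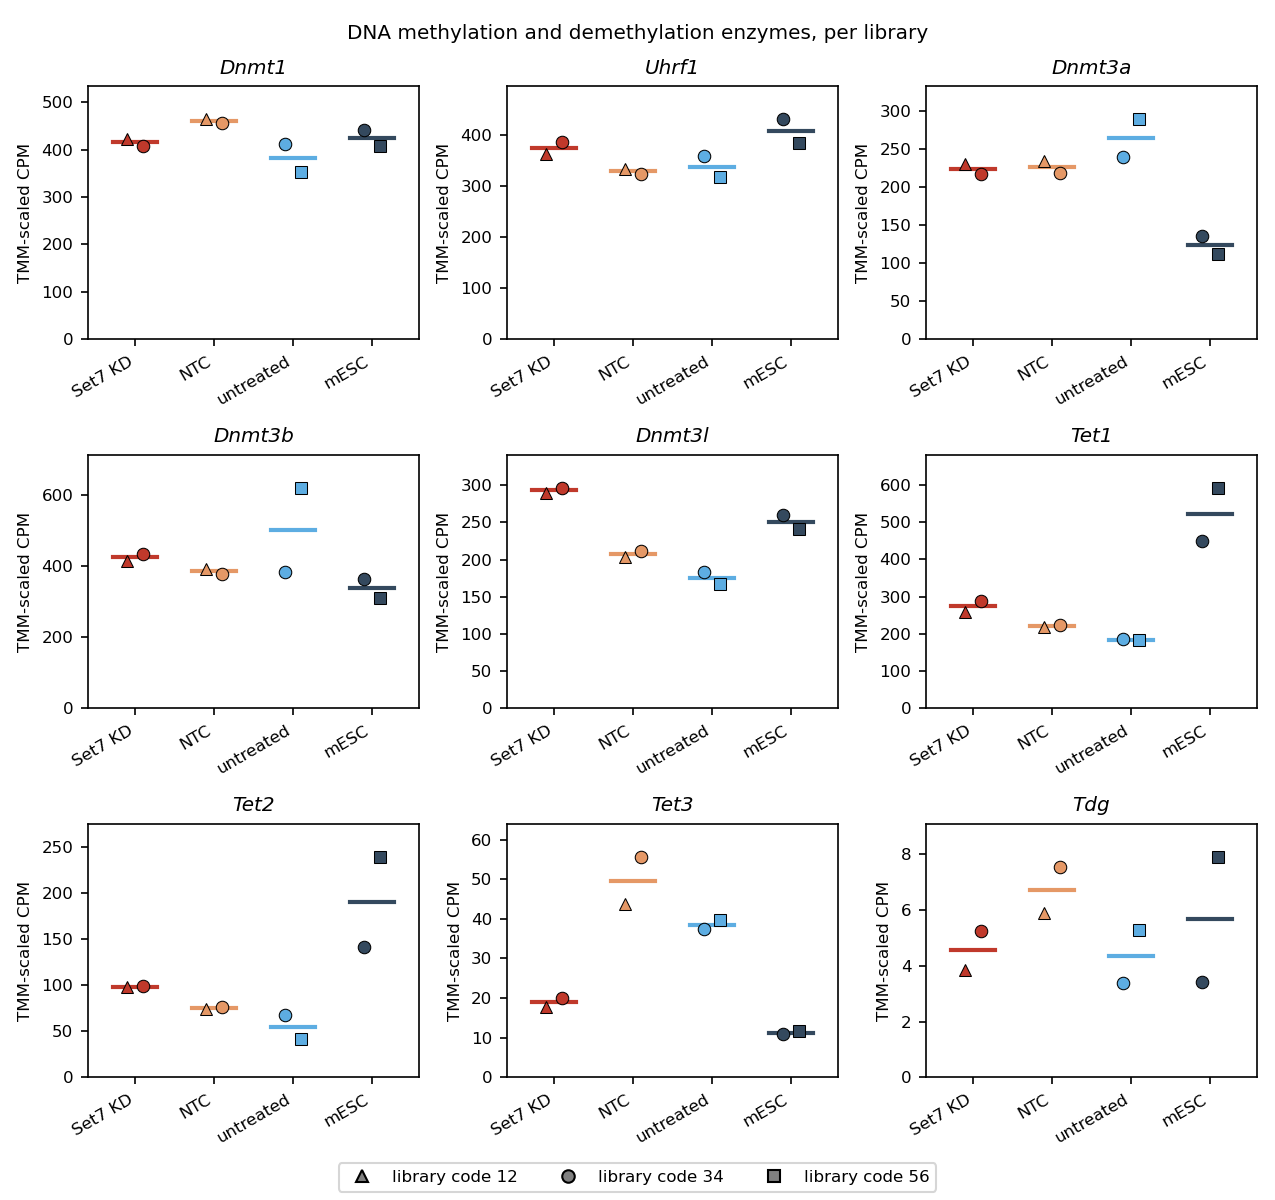
TMM-scaled CPM (y axis, from 0) of the 9 genes in every library, by group. Each point is a library, its shape gives the library code, and the bar is the mean of the 2 libraries of a group. The knock-down libraries of Tet3, at 17.8 and 19.96 CPM, lie between those of mESC and those of the other Sca1 groups.

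Tet3 fell in knock-down relative to NTC cells and was above mESC in all 3 Sca1 groups. It was at 17.8 and 19.96 CPM in knock-down libraries, 43.6 and 55.6 CPM in NTC libraries, 37.3 and 39.7 CPM in untreated Sca1 libraries, and 10.96 and 11.6 CPM in mESC libraries. The knock-down libraries lay below all NTC and untreated libraries and above both mESC libraries. In knock-down against NTC cells the log2 fold change was -1.38 ± 0.18 (adjusted p = 3.85e-05), with -1.27 within code 12 and -1.45 within code 34. The call was made in all 18 alternative analyses, with estimates between -1.55 and -1.20 and adjusted p up to 0.00354. The log2 fold change of untreated Sca1 cells against mESC was 1.76 ± 0.20 (adjusted p = 2.85e-06), and it was 1.72 within each code. NTC and untreated Sca1 cells gave 0.37 ± 0.17, which did not pass (adjusted p = 0.240). The knock-down cells were also lower than untreated Sca1 cells (-1.01 ± 0.20, adjusted p = 0.00156), a comparison that shares the knock-down libraries with the one against NTC. Against mESC the knock-down cells gave 0.75 ± 0.21 (adjusted p = 0.0148). That last call was lost without knock-down replicate 2 (adjusted p = 0.155) and with DESeq2 (adjusted p = 0.0507).

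Tet1, the TET enzyme best known from embryonic stem cells, went the other way. Its level was 259 and 289 CPM in knock-down libraries, 219 and 224 CPM in NTC libraries, 186 and 183 CPM in untreated Sca1 libraries, and 450.4 and 591 CPM in mESC libraries. All 6 Sca1 libraries lay below both mESC libraries, and untreated Sca1 cells against mESC gave a log2 fold change of -1.50 ± 0.13 (adjusted p = 1.26e-07), with -1.28 within code 34 and -1.69 within code 56. Knock-down cells also stayed below mESC (-0.93 ± 0.13, adjusted p = 4.19e-05). The 2 knock-down libraries lay above the 2 NTC libraries, but the difference of 0.31 ± 0.13 did not pass in the fit of all 8 libraries (adjusted p = 0.134). In a fit of the 4 knock-down and NTC libraries alone the estimate of 0.32 passed (adjusted p = 0.000465), and it also passed without mESC replicate 1 (adjusted p = 0.0258), without mESC replicate 2 (adjusted p = 0.0240) and without both libraries of code 56 (adjusted p = 0.000533). Against untreated Sca1 cells, knock-down cells had a log2 fold change of 0.57 ± 0.13 (adjusted p = 0.00638), a call lost without knock-down replicate 2 (adjusted p = 0.125).

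Tet2, which unlike Tet1 and Tet3 has no CXXC DNA-binding domain of its own, followed the order of Tet1. It was at 97.5 and 98.5 CPM in knock-down libraries, 73.8 and 76.3 CPM in NTC libraries, 67.8 and 41.0 CPM in untreated Sca1 libraries, and 141 and 239 CPM in mESC libraries. The groups did not overlap, and both libraries of code 56 lay further from the other groups than their partners of code 34. In untreated Sca1 cells against mESC the log2 fold change was -1.78 ± 0.27 (adjusted p = 0.000561), with -1.05 within code 34 and -2.53 within code 56, so its size rested on the libraries of code 56. In knock-down against NTC cells it was 0.38 ± 0.26 (adjusted p = 0.388), and 0.39 in the fit of those 4 libraries alone, where it passed (adjusted p = 0.000844), as it did without both libraries of code 56 (adjusted p = 0.000863). Summed over the 3 TET genes, counts came to 374 and 407 CPM in knock-down libraries, 336 and 356 CPM in NTC libraries, 291 and 264 CPM in untreated Sca1 libraries, and 602 and 842 CPM in mESC libraries.

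The make-up of the family is a comparison within a library, so it does not depend on the scaling between libraries. With counts divided by transcript length, Tet3 made up 5.40% and 5.60% of the TET total in knock-down libraries, 14.7% and 17.6% in NTC libraries, 14.4% and 17.5% in untreated Sca1 libraries, and 2.11% and 1.56% in mESC libraries. Tet1 was the main TET transcript everywhere, with 59.5% and 61.6% in knock-down libraries, 55.9% and 53.7% in NTC libraries, 54.4% and 61.1% in untreated Sca1 libraries, and 65.7% and 60.3% in mESC libraries. By the share of Tet3, the knock-down libraries lay apart from the NTC, untreated and mESC libraries, while by that of Tet1 the knock-down, untreated and mESC libraries overlapped. Per 100 Tet1 reads there were 6.89 and 6.90 Tet3 reads in knock-down libraries, 19.9 and 24.9 in NTC libraries, 20.1 and 21.7 in untreated Sca1 libraries, and 2.43 and 1.97 in mESC libraries.

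**Figure D3:**
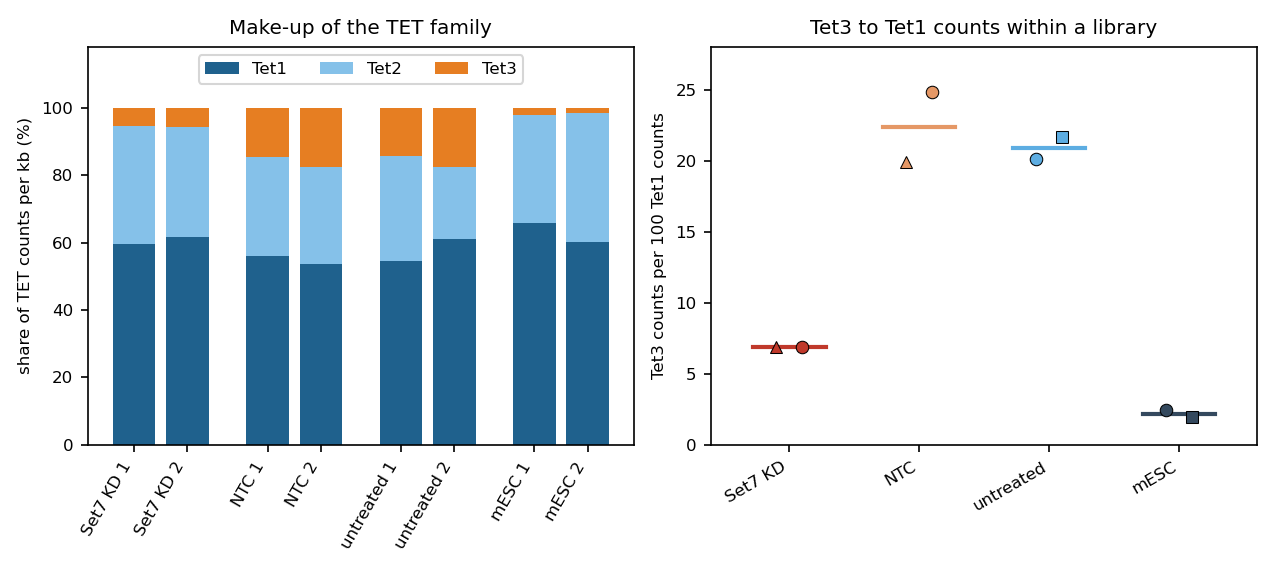
Left, share of Tet1, Tet2 and Tet3 in the length-scaled TET counts of each library (y axis, %). Right, Tet3 counts per 100 Tet1 counts, with a point per library (triangle code 12, circle code 34, square code 56) and a bar at the group mean. The knock-down libraries, at 6.89 and 6.90, lie between the mESC libraries and the other Sca1 libraries.

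Summed fibroblast markers had the same order over the 4 groups as Tet3. The 8 fibroblast markers examined (Col1a1, Col1a2, Col3a1, Postn, Pdgfrb, Thy1, Dcn and Lum) summed to 94.7 and 83.6 CPM in knock-down libraries, 1872 and 1801 CPM in NTC libraries, 757 and 836 CPM in untreated Sca1 libraries, and 27.4 and 22.4 CPM in mESC libraries. Of the 7 that could be tested, 6 were lower in knock-down than in NTC cells, where 10.1% of all tested genes were lower. In NTC against untreated Sca1 cells 4 of the 7 were higher, with 3.88% of all genes. In untreated Sca1 cells relative to mESC 7 were higher, with 18.7% of all genes. Postn, a secreted matrix protein, had 0 counts in the knock-down and mESC libraries, Dcn and Lum had 0 counts in mESC, and Lum had 0 counts in knock-down replicate 1. In NTC replicate 1 the fibroblast sum came mostly from Col1a1 (787 CPM), Col3a1 (655 CPM) and Col1a2 (302 CPM), which followed its order. Dcn did not, at 3.77 and 3.11 CPM in NTC and 3.70 and 4.41 CPM in untreated Sca1 libraries. Thy1 in knock-down libraries, at 25.5 and 25.4 CPM, lay between the untreated Sca1 libraries, at 30.2 and 19.0 CPM. The 7 smooth muscle markers (Acta2, Tagln, Cnn1, Myh11, Myocd, Tpm1 and Cald1) summed to 486 and 514 CPM in knock-down libraries, 1426 and 1460 CPM in NTC libraries, 2009 and 1538 CPM in untreated Sca1 libraries, and 138 and 127 CPM in mESC libraries. Their part in the Tet3 result was not tested. In bulk RNA, fewer cells of a type and less RNA per cell cannot be told apart.

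**Figure D4:**
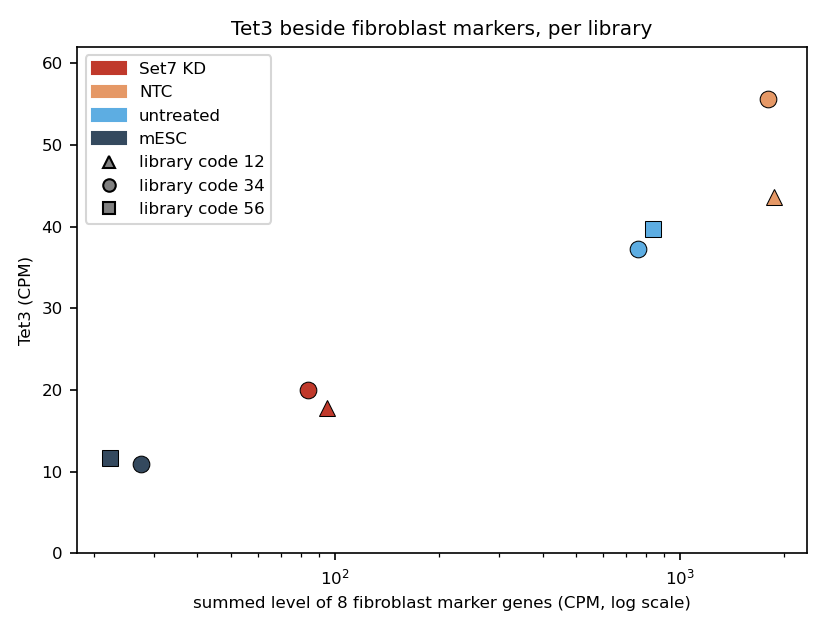
Tet3 level (y axis, CPM) against the summed level of the 8 fibroblast markers (x axis, CPM, log scale), with a point per library, coloured by group and shaped by library code. The libraries of each group lie together, the mESC and knock-down libraries at the low end of both axes and the NTC libraries at the high end.

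The genes whose levels were most like those of Tet3 over the 8 libraries, by Pearson correlation of log2 CPM among 8205 genes of at least 20 CPM, were Col3a1 (0.993), Mest (0.991), Ccdc80 (0.991), Tnc (0.988) and Col1a1 (0.987). Col1a1 and Col3a1, also among the fibroblast markers summed above, encode fibrillar collagens and Tnc a matrix glycoprotein. Their range was far wider than that of Tet3: Col3a1 averaged 6.65 CPM in knock-down, 656 CPM in NTC, 250.4 CPM in untreated Sca1 and 0.224 CPM in mESC libraries. Mest, an imprinted gene, averaged 283 CPM in knock-down, 927 CPM in NTC, 779 CPM in untreated Sca1 and 127 CPM in mESC libraries. For Tet1 the nearest genes were Atp11b (0.992), Ccar1 (0.992), Syt9 (0.990), Zfp59 (0.988) and Mme (0.988). Mme, a membrane metalloendopeptidase, averaged 48.4 CPM in knock-down, 43.4 CPM in NTC, 34.04 CPM in untreated Sca1 and 115 CPM in mESC libraries. These correlations describe 8 libraries in 4 groups, and libraries of 1 group share their condition.

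Among the de novo enzymes Dnmt3a differed between Sca1 cells and mESC. It was at 230 and 217 CPM in knock-down libraries, 234 and 218 CPM in NTC libraries, 239 and 289 CPM in untreated Sca1 libraries, and 135 and 111 CPM in mESC libraries. Every Sca1 library lay above both mESC libraries, and the 3 Sca1 groups lay close together. Untreated Sca1 cells against mESC gave a log2 fold change of 1.10 ± 0.13 (adjusted p = 4.65e-06), with 0.82 within code 34 and 1.37 within code 56. Knock-down cells were also above mESC (0.86 ± 0.13, adjusted p = 0.000106). Knock-down against NTC cells gave -0.02 ± 0.13 (adjusted p = 0.952), and NTC against untreated Sca1 cells gave -0.22 ± 0.13 (adjusted p = 0.350). The long transcript NM_007872 held 10 to 32 reads more per library than the short transcript NM_153743, that is 1.29% to 6.31% of its counts. The rows thus shared nearly all their reads, and their levels do not tell the 2 forms apart.

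Dnmt3b, the other de novo enzyme, was at 416 and 434 CPM in knock-down libraries, 394 and 378 CPM in NTC libraries, 384 and 621 CPM in untreated Sca1 libraries, and 365 and 311 CPM in mESC libraries. A single library, untreated Sca1 replicate 2, lay apart from the other 7. The log2 fold change of untreated Sca1 cells against mESC was 0.57 ± 0.17 (adjusted p = 0.0156), but it was 0.07 within code 34 and 1.00 within code 56. Without untreated replicate 2 it was 0.19 (adjusted p = 0.321). The call was also lost without mESC replicate 1 (adjusted p = 0.0834), without mESC replicate 2 (adjusted p = 0.218) and without both libraries of code 56 (adjusted p = 0.517). Knock-down against NTC cells gave 0.14 ± 0.17 (adjusted p = 0.654).

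Dnmt3l, the cofactor without catalytic activity, had its highest level in knock-down cells. It was at 290.0 and 296 CPM in knock-down libraries, 203 and 211 CPM in NTC libraries, 183 and 167 CPM in untreated Sca1 libraries, and 260.2 and 241 CPM in mESC libraries. The 4 groups did not overlap. In knock-down against NTC cells the log2 fold change was 0.50 ± 0.11 (adjusted p = 0.00533), with 0.51 within code 12 and 0.49 within code 34. The estimate stayed between 0.47 and 0.53 in the alternatives, but the call was lost when any of the 4 libraries was left out (adjusted p between 0.0566 and 0.114) and with library totals as the only scaling (adjusted p = 0.0877). Untreated Sca1 cells against mESC gave a log2 fold change of -0.52 ± 0.11 (adjusted p = 0.00184), with -0.51 within code 34 and -0.53 within code 56. Knock-down cells were also above untreated Sca1 cells (0.74 ± 0.11, adjusted p = 0.000222), while knock-down against mESC gave 0.23 ± 0.11, which did not pass (adjusted p = 0.152). Read for read within a library, there were 126 and 136 Dnmt3l reads per 100 Dnmt3a reads in knock-down libraries, 87.0 and 96.8 in NTC libraries, 76.4 and 57.6 in untreated Sca1 libraries, and 192 and 217 in mESC libraries. The same ratio of Dnmt3a to Dnmt3b was 55.2 and 50.1 in knock-down libraries, 59.3 and 57.8 in NTC libraries, 62.2 and 46.6 in untreated Sca1 libraries, and 37.1 and 35.8 in mESC libraries.

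The maintenance pair showed no call in the 3 comparisons. Dnmt1 was at 423 and 409 CPM in knock-down libraries, 465 and 457 CPM in NTC libraries, 412 and 354 CPM in untreated Sca1 libraries, and 442 and 407 CPM in mESC libraries. Its log2 fold change was -0.15 ± 0.11 in knock-down against NTC cells (adjusted p = 0.447) and also -0.15 ± 0.11 in untreated Sca1 cells against mESC (adjusted p = 0.341). In NTC against untreated Sca1 cells it was 0.26 ± 0.11 (adjusted p = 0.198). Uhrf1 was at 362 and 386 CPM in knock-down libraries, 333 and 323 CPM in NTC libraries, 357 and 318 CPM in untreated Sca1 libraries, and 431 and 384 CPM in mESC libraries. Both knock-down libraries lay above both NTC libraries, with a log2 fold change of 0.19 ± 0.11 that did not pass (adjusted p = 0.314). It passed in the fit of those 4 libraries alone (adjusted p = 0.0211) and without both libraries of code 56 (adjusted p = 0.0235). For untreated Sca1 cells against mESC Uhrf1 gave -0.27 ± 0.11 (adjusted p = 0.0760), and -0.27 within each code. It passed without mESC replicate 2 (-0.35, adjusted p = 0.0254) and without both libraries of code 56 (adjusted p = 0.0319). Per 100 Dnmt1 reads there were 85.6 and 94.4 Uhrf1 reads in knock-down libraries, 71.6 and 70.8 in NTC libraries, 86.7 and 89.8 in untreated Sca1 libraries, and 97.4 and 94.4 in mESC libraries. The NTC libraries were the low ones in that ratio. Transcripts of both genes are known to be cell-cycle dependent, and the 14 S-phase genes examined summed to 3773 and 3869 CPM in knock-down libraries, 3391 and 3477 CPM in NTC libraries, 3840.0 and 3649 CPM in untreated Sca1 libraries, and 3973 and 3287 CPM in mESC libraries. Their part in these values was not tested.

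Tdg had 11 to 36 counts per library and was the least expressed of the 9 by CPM. It was at 3.84 and 5.26 CPM in knock-down libraries, 5.89 and 7.56 CPM in NTC libraries, 3.39 and 5.29 CPM in untreated Sca1 libraries, and 3.43 and 7.90 CPM in mESC libraries. The 2 mESC libraries spanned nearly the whole range, and the knock-down libraries lay below the NTC libraries. Its log2 fold change was -0.53 ± 0.40 in knock-down against NTC cells (adjusted p = 0.445) and -0.43 ± 0.45 in untreated Sca1 cells against mESC (adjusted p = 0.487). The Tdg row and the row of the pseudogene Tdg-ps2, at another place on chromosome 10, held the same count in 7 of 8 libraries and differed by 3 reads in the other. Reads of the gene and of its copies therefore cannot be told apart, and the level of Tdg is uncertain.

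Put in order over the 4 groups, 5 neighbouring pairs of levels were separated at an adjusted p under 0.05. For Tet3 the order was NTC, untreated Sca1, knock-down and mESC, with a separation of untreated Sca1 from knock-down and of knock-down from mESC. For Tet1 it was mESC, knock-down, NTC and untreated Sca1, and only mESC stood apart from its neighbour. Tet2 had the same order and the same single separation (knock-down against mESC, -0.95 ± 0.25, adjusted p = 0.0174), which was lost without knock-down replicate 1 (adjusted p = 0.0798) and without replicate 2 (adjusted p = 0.0865). For Dnmt3a the 3 Sca1 groups were not separated from each other and mESC stood below them. In Dnmt3b, Dnmt3l, Dnmt1, Uhrf1 and Tdg no neighbours were separated. Against mESC, 4 genes were called in knock-down cells, where 25.9% of all genes were called (13.5% higher and 12.4% lower). NTC cells against mESC, with 35.1% of all genes called (19.6% higher and 15.5% lower), shared the mESC libraries with the other comparisons: Dnmt3a gave 0.87 ± 0.13, Tet1 -1.23 ± 0.13, Tet2 -1.34 ± 0.25, Tet3 2.13 ± 0.19 and Uhrf1 -0.31 ± 0.11, the last with an adjusted p of 0.0404 and a call that was lost in 9 of 18 alternatives. In knock-down against untreated Sca1 cells, with 17.2% of all genes called (7.34% higher and 9.89% lower), the calls were the 3 already given for Dnmt3l, Tet1 and Tet3. Tet2 gave 0.82 ± 0.27 in that comparison and did not pass (edgeR adjusted p = 0.0693). The same held in 11 of 18 alternatives, and in the others it passed, among them the fit of the compared groups only (adjusted p = 0.00459).

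Levels of different genes can be set side by side only per length. As CPM per kilobase of transcript, with lengths from GENCODE vM21 for the counted RefSeq transcripts, Dnmt3l was highest in knock-down cells at 161, followed by Uhrf1 at 107, Dnmt3b at 99.8, Dnmt1 at 79.3, Tet1 at 19.05, Tet2 at 10.7 and Tet3 at 1.73. In mESC these values were 138 for Dnmt3l, 117 for Uhrf1, 79.4 for Dnmt3b, 80.9 for Dnmt1, 36.3 for Tet1, 20.7 for Tet2 and 1.04 for Tet3. Dnmt3a was at 23.1 in knock-down cells and 12.7 in mESC by the length of NM_007872, or at 41.2 and 22.7 in the same groups by that of NM_153743. The TET transcripts were thus rarer per length than those of Dnmt3l, Uhrf1, Dnmt3b and Dnmt1 in both groups, whichever counted transcript gave the length. Dnmt3a lay below Tet1 in mESC by either of its lengths, and above Tet2 there by the length of NM_153743 and below it by that of NM_007872.

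Around the 9 enzymes, 5 lists of pathway genes were examined. Their medians and counts are descriptions, to be read beside the shares of all genes already given. The 9 other readers of methylation had 4 genes higher and 1 lower in untreated Sca1 cells relative to mESC (median log2 fold change 0.36). Uhrf2, the paralogue of Uhrf1, averaged 139 ± 17.2 CPM in untreated Sca1 cells, against 69.0 ± 3.93 CPM in mESC (SD, n = 2 each; log2 fold change 1.01 ± 0.13, edgeR adjusted p = 1.1e-05). Zbtb33, the methyl-CpG binding protein Kaiso, averaged 34.4 ± 8.09 CPM in untreated Sca1 cells, against 13.2 ± 2.27 CPM in mESC (1.36 ± 0.22, adjusted p = 0.000123). Zbtb4, another zinc finger reader, gave 2.08 ± 0.49 at low levels, and Zbtb38 gave -0.95 ± 0.22, a call lost without untreated replicate 1 (adjusted p = 0.0578). Knock-down against NTC cells gave 0 readers higher and 1 lower, Zbtb4 (-1.68 ± 0.48, adjusted p = 0.0243). That call rested on single libraries, with an adjusted p up to 0.356 when one was left out, and was also lost with DESeq2. NTC against untreated Sca1 cells gave 0 calls among the 9 readers.

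Of the 14 genes of the glycosylase and repair steps after TET, 2 rose and 1 fell in untreated Sca1 cells relative to mESC (median -0.07). Gadd45g, a stress-induced member of the Gadd45 family linked to demethylation, averaged 24.5 ± 0.231 CPM in untreated Sca1 cells, against 3.14 ± 0.721 CPM in mESC (SD, n = 2 each; 2.95 ± 0.26, edgeR adjusted p = 1.16e-07). Gadd45a gave 0.58 ± 0.17, lost without mESC replicate 2, without both libraries of code 56 and in the fit of those 4 libraries alone (adjusted p up to 0.0725). The glycosylase Neil2 gave -0.74 ± 0.28, lost in 7 of the analyses that left out a library. Knock-down against NTC cells gave 0 calls among the 14 (median 0.12), and in NTC against untreated Sca1 cells 1 was higher, Neil2 (0.99 ± 0.27), with an adjusted p up to 0.280 when a library was left out. Of the 12 genes of methyl donor and TET cofactor supply, 2 were lower in untreated Sca1 cells relative to mESC (median -0.06). Idh1, which makes the TET cofactor 2-oxoglutarate, averaged 133 ± 20.6 CPM in untreated Sca1 cells, against 221 ± 36.0 CPM in mESC (-0.73 ± 0.14, adjusted p = 0.000467). Shmt1, an enzyme of one-carbon metabolism, gave -0.47 ± 0.13, lost without mESC replicate 1, without untreated replicate 2 and with library totals as the only scaling (adjusted p up to 0.0958). Knock-down against NTC cells gave 0 calls among these 12, and so did NTC against untreated Sca1 cells.

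Among 17 tested partners and regulators of the enzymes, 3 rose and 4 fell in untreated Sca1 cells relative to mESC (median -0.11). Zfp57, which protects imprint methylation, averaged 200.3 ± 62.02 CPM in untreated Sca1 cells, against 644 ± 113 CPM in mESC (SD, n = 2 each; -1.68 ± 0.17, edgeR adjusted p = 1.35e-06). Dppa3, which restrains Uhrf1 and shields methylation in the early mouse embryo, averaged 21.1 ± 2.42 CPM in untreated Sca1 cells, against 4.16 ± 1.54 CPM in mESC (2.35 ± 0.27, adjusted p = 2.63e-06). Cxxc5, a CXXC protein related to the DNA-binding part of the TET proteins, gave 1.09 ± 0.16, and Prdm14, a repressor of the de novo enzymes in mouse stem cells, gave -1.22 ± 0.26. None of the 17 was called in knock-down against NTC cells (0 higher, 0 lower, median 0.08). For NTC against untreated Sca1 cells 2 were higher, Dppa3 (0.74 ± 0.20) and Zfp57 (0.69 ± 0.17), and both were lost when single libraries were left out (adjusted p up to 0.302 and 0.204).

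The last list held 16 germline genes, several of which are known in mice to be kept silent by promoter methylation in somatic cells, and 14 could be tested. Against mESC, 1 was higher and 6 were lower in untreated Sca1 cells (median -0.74). Dazl, an RNA-binding protein of germ cells, averaged 17.2 ± 0.0534 CPM in untreated Sca1 cells, against 144 ± 43.1 CPM in mESC (SD, n = 2 each; -3.07 ± 0.21, edgeR adjusted p = 5.43e-09). Hormad1, a meiotic chromosome axis protein, averaged 5.35 ± 0.714 CPM in untreated Sca1 cells, against 38.3 ± 10.2 CPM in mESC (-2.81 ± 0.29, adjusted p = 7.82e-07). Sohlh2, a germ cell transcription factor, gave -1.65 ± 0.15, whereas Tdrd1, a protein of the piRNA pathway, gave 2.84 ± 0.52 at low levels. Tdrd1 had 32 counts in all over the untreated Sca1 libraries and 7 over the mESC libraries. The knock-down cells had, against NTC cells, 4 germline genes higher and 0 lower (median 0.27). Brdt, a testis bromodomain protein, averaged 9.85 ± 0.899 CPM in knock-down cells and 3.55 ± 0.309 CPM in NTC cells (1.45 ± 0.33, adjusted p = 0.00619). Sycp1 and Sycp3, components of the synaptonemal complex, gave 0.89 ± 0.24 and 1.20 ± 0.32, and Tex19.1 gave 0.59 ± 0.18. All 4 calls were lost when single libraries were left out, with adjusted p up to 0.0838 for Brdt, 0.183 for Sycp1, 0.356 for Sycp3 and 0.322 for Tex19.1. NTC cells had, against untreated Sca1 cells, 0 germline genes higher and 1 lower, Tdrd1 (-1.65 ± 0.44), with an adjusted p up to 0.348 on leaving out a library. Over the 5 lists, 17 of the 24 calls in untreated Sca1 cells against mESC were kept whichever library was left out, against 0 of 5 in knock-down against NTC cells and 0 of 4 in NTC against untreated Sca1 cells.

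**Figure D5:**
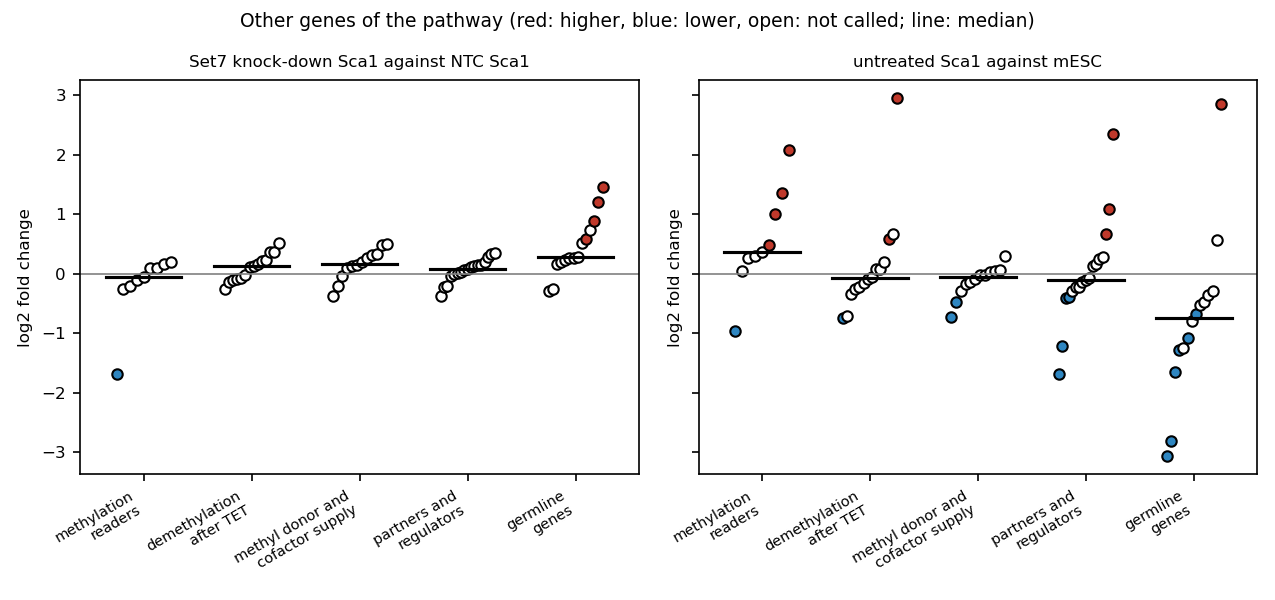
Log2 fold change (y axis) of the tested genes of the 5 pathway lists (x axis) in knock-down against NTC, left, and in untreated Sca1 against mESC, right. Each point is a gene, red where called higher, blue where called lower and open where not called, and the bar is the median of the list. The germline genes have a median of 0.27 on the left and -0.74 on the right.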

How the data were processed

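The authors deposited whole-number read counts per RefSeq transcript, with no scaling judged from the values, and no column was left unused (0). Per the labels' protocols, sequencing used an Illumina Genome Analyzer IIx after poly(A) selection. The tools BWA 0.5.9, SAMtools 0.1.17 and edgeR 0.19 are named per the submitters' processing notes. The genome build, annotation release, counting program and strand were not given in the sources used here.

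Of 29614 transcripts, 28985 were named by a RefSeq table, 173 by GENCODE vM21, and 456 kept their accession. The transcript with the highest total stood for each gene, since transcripts of a gene share reads. Genes passing filterByExpr were scaled by TMM and fitted in R 4.3.3 with edgeR 4.0.16, with 1 mean per group over all 8 libraries (residual degrees of freedom 4, common dispersion 0.0133). Calls came from edgeR's robust quasi-likelihood F test, with p-values adjusted by Benjamini-Hochberg over 13966 genes, at an adjusted p under 0.05. A standard error is the log2 fold change divided by the square root of F, and correlations used log2 CPM with a prior count of 2. The code was tested on simulated data.

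The 9 members and all lists were chosen with earlier results of these data known. The 9 were described in full, and at most 4 called genes of each pathway list, those with the smallest p, were named per comparison. Genes of like pattern were the 5 with the highest correlation, for the member with the smallest p in untreated Sca1 against mESC and in knock-down against NTC. The other marker lists covered endoderm, endothelium, blood and primed epiblast. The alternatives were DESeq2 1.42.0, RLE factors or library totals in place of TMM, a filter at 5 CPM or none, only the compared groups in the fit, the library code as a block, summed transcripts, and each library left out. Leaving out both libraries of code 56, or the ribosomal RNA transcript, was added after seeing the data.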

Additional observations from a re-analysis of the deposited data

How the results depend on the processing

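In untreated Sca1 cells against mESC, the calls of Tet1, Tet2, Tet3, Dnmt3a and Dnmt3l were made in all 18 alternatives, and so was that of Tet3 in knock-down against NTC cells. With 2 libraries per group, the counts of called genes moved over 1.5 times in knock-down against NTC and in NTC against untreated Sca1.

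Where a value changed its call, direction or size, the cause was not tested unless fewer samples or genes are named. With library totals only, knock-down against NTC had 260 genes higher (593 in the reported fit) and 0 of the 9 enzymes higher, with Dnmt3l at 0.48. The pathway lists then had 9 genes lower in untreated Sca1 cells against mESC (14 reported). For NTC against untreated Sca1 this scaling gave 18 genes lower (154 reported), 1 list gene higher (3 reported), 0 lower (1 reported) and Uhrf1 at 0.0465, reversed. DESeq2 gave 372 genes higher and 903 lower (1404 reported) in knock-down against NTC, with 0 list genes lower (1 reported). In NTC against untreated Sca1 it gave 1 list gene higher and 0 lower. With no filter, NTC against untreated Sca1 had 343 genes lower, and 2 list genes were lower there and in knock-down against NTC. The filter at 5 CPM, which tests fewer genes, left 0 in both. With summed transcripts, 1 list gene was higher in NTC against untreated Sca1. With the compared groups only, knock-down against NTC had 1981 genes higher and 2433 lower, 4 enzymes higher (Uhrf1 0.20, Tet1 0.32, Tet2 0.39 beside Dnmt3l), and 16 list genes higher and 4 lower, while NTC against untreated Sca1 had 348 genes lower.

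The libraries that share a replicate number deviated together only weakly (correlation 0.26 for untreated Sca1 and mESC, 0.05 for knock-down and NTC, and -0.03 for NTC and untreated Sca1). In the first 2 of these the paired libraries also share a code, but not in the last. The value of -0.03 therefore does not bear on pairing by code. With 2 pairs per comparison the pairing is not established. With the library code as a replicate block, knock-down against NTC had 1054 genes higher, 2 enzymes higher (Tet1 at 0.31, beside Dnmt3l), and 11 list genes higher and 2 lower. NTC against untreated Sca1 had 819 genes higher and 442 lower, with 1 enzyme higher (Tet1, 0.41). In untreated Sca1 against mESC, Dnmt3b at 0.54 was no longer called and Uhrf1 at -0.27 was. Knock-down against mESC gave Tdg at 0.46, reversed, and lost the call of Tet2. NTC against mESC lost the call of Tet2.

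Without both libraries of code 56, knock-down against NTC had 1957 genes higher and 2505 lower, 4 enzymes higher (Uhrf1 0.19, Tet1 0.31 and Tet2 0.38 beside Dnmt3l), and 16 list genes higher and 4 lower. NTC against untreated Sca1 had 1300 genes higher and 1084 lower, with 5 list genes higher and 9 lower. In untreated Sca1 against mESC, Dnmt3b fell short at 0.0872 and Uhrf1 passed at -0.25, and 10 neighbouring pairs of levels were separated (5 reported). In knock-down against mESC, Tdg at 0.46 and Setd7 at 0.11 reversed, and in knock-down against untreated Sca1, Dnmt3b at 0.13 reversed. With library totals only, Dnmt1 at 0.0705 reversed in knock-down against mESC. None of these reversed values was called.

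Leaving out 1 library at a time gave 111 to 1034 genes higher and 537 to 1793 lower in knock-down against NTC, with 0 to 2 enzymes higher, and 0 to 10 list genes higher and 0 to 2 lower. In NTC against untreated Sca1 it gave 54 to 988 genes higher and 2 to 529 lower, 0 to 1 enzymes lower, and 0 to 3 list genes higher and 0 to 3 lower. Neighbouring pairs separated numbered 3 to 7. Log2 fold changes ranged over 0.47 to 0.53 for Dnmt3l, 0.22 to 0.39 for Tet1 and -0.0660 to 0.0323 for Dnmt3a in knock-down against NTC. They ranged over 0.19 to 0.88 for Dnmt3b, -0.36 to -0.18 for Uhrf1 and -0.91 to 0.29 for Tdg in untreated Sca1 against mESC. In NTC against untreated Sca1 they ranged over -0.68 to 0.00269 for Dnmt3b and -0.13 to 0.0486 for Uhrf1. In knock-down against mESC the ranges were -0.0879 to 0.0317 for Dnmt1, -0.75 to 0.45 for Tdg and -0.45 to 0.11 for Setd7. In knock-down against untreated Sca1 they were -0.54 to 0.14 for Dnmt3b and -0.17 to 0.46 for Tdg, and in NTC against mESC -0.23 to 0.97 for Tdg.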

Other observations

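The remaining 7 pathway genes called in untreated Sca1 cells against mESC, named here to complete the lists and so chosen after their values were seen, changed less than most of those already described. Usp7, a deubiquitinase that acts on DNMT1 and UHRF1, averaged 430.4 ± 4.73 CPM in untreated Sca1 cells, against 571 ± 9.37 CPM in mESC (SD, n = 2 each; log2 fold change -0.41 ± 0.11, edgeR adjusted p = 0.0075), a call lost with library totals as the only scaling and in the fit of those 4 libraries alone (adjusted p up to 0.0951). Hells, a chromatin remodeller needed for normal DNA methylation, averaged 279.8 ± 26.3 CPM in untreated Sca1 cells, against 364 ± 50.9 CPM in mESC (-0.38 ± 0.12), a call lost without mESC replicate 2 or untreated replicate 1, with library totals only and in the fit of the 4 libraries (adjusted p up to 0.147). Cdca7l, related to the HELLS partner CDCA7, gave 0.67 ± 0.16. Mbd3, a NuRD subunit of the methyl-CpG binding family, gave 0.48 ± 0.14, lost without replicate 2 of either group, without both libraries of code 56 and with library totals only (adjusted p up to 0.121). Of the germline genes, Sycp1 gave -1.08 ± 0.22, Brdt -1.28 ± 0.32 and Rpl10l -0.68 ± 0.23, the last lost in 8 of 18 alternatives (adjusted p up to 0.266). The Brdt call was lost without both libraries of code 56 (-0.83, adjusted p = 0.0972). In the fit of all 8 libraries Sycp1 and Brdt were thus lower in untreated Sca1 cells relative to mESC and had higher values in knock-down than in NTC cells, in comparisons that share no library.

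Of the other marker lists, 6 of 6 primed epiblast genes were higher in untreated Sca1 cells relative to mESC (median log2 fold change 1.88), and 0 were higher and 2 lower in knock-down than in NTC cells (median 0.17). Of 6 tested genes of visceral and primitive endoderm, 0 rose and 4 fell in untreated Sca1 cells relative to mESC (median -1.32), while 1 was higher and 1 lower in knock-down than in NTC cells (median -0.09). Of 4 endothelial genes, 0 rose and 2 fell in untreated Sca1 cells relative to mESC (median -1.44), and 0 were called in knock-down against NTC cells. Of the 4 blood genes 1 could be tested, which was lower in untreated Sca1 cells relative to mESC. These counts are descriptions, to be read beside the shares of all genes already given.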
